A study of Mus musculus with 6 samples.

Results

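The nuclear-encoded genes of respiratory chain complex I were followed in liver RNA of male C57BL/6 mice on 2 diets. They were chosen by symbol, as every gene whose name starts with Ndufa, Ndufb, Ndufc, Ndufs, Ndufv or Ndufab and a number, or with Ndufaf and a number, and which had a probe set of 1 gene on the array. This gave 43 genes of 19938 tested, namely 36 subunit genes and 7 Ndufaf assembly factor genes. Liver RNA was hybridised to 6 arrays (Affymetrix Mouse Gene 1.0 ST), 3 for each diet, and the mice were 6 weeks old before 1 week of acclimatization on chow. Those of the CH group (arrays CH1 to CH3) were fed chow with 1% cholesterol. Those of the LE group (LE1 to LE3) received lovastatin, a blocker of cholesterol synthesis (100 mg), and ezetimibe, a blocker of intestinal cholesterol uptake (21 mg), in each 100 g of chow. The series thus sets a diet rich in cholesterol against one that limits it. Mice kept on plain chow, also mentioned in the labels, have no arrays among these 6. A gene said to fall or rise is therefore lower or higher with LE than with CH. Whether the LE diet or the cholesterol diet moved it cannot be told apart. The labels name the arrays biological replicates without tying them to single animals, so the p-values cover the array-to-array spread alone, which may be partly technical.

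Complex I is the entry point of electrons from NADH into the mitochondrial respiratory chain. Its peripheral arm, which reaches into the matrix, passes electrons from NADH through a flavin and a chain of iron-sulfur clusters to ubiquinone, and its membrane arm pumps protons. The catalytic core subunits are encoded partly in the nucleus and partly in mitochondrial DNA, and they are surrounded by accessory subunits that stabilise the complex. Assembly factors build the parts and leave the finished enzyme. The protein of Ndufa4 was once counted with complex I and is now placed in complex IV, and Ndufa4l2 is its paralog. Both were kept in the count of 36 by the symbol rule.

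Of 36 subunit genes, 7 fell, 0 rose and 29 did not pass limma's test (adjusted p below 0.05, Benjamini-Hochberg over all genes). The 7 that fell were Ndufa1, Ndufb3 and Ndufb7 of the membrane arm, Ndufs1 and Ndufv1 of the catalytic core, Ndufs6 of the peripheral arm, and Ndufa4. They make up 19.4% of the subunits, where 5.08% of all genes tested fell and 7.01% rose. All 36 subunits were also among the 13292 brighter genes. When these alone were tested, 30.6% of the subunits fell and 0 rose, where 9.78% of the brighter genes fell and 13.5% rose. At an unadjusted p below 0.05, 15 subunits were lower and 0 higher, where 11.8% of all genes were lower and 13.0% higher. The count of subunits that rose was 0 also in a cyberT-style regularised test, in which 10.4% of all genes rose. The median change was -0.11 on the log2(intensity + 1) scale (-7.12%), beside -0.005 over all genes. The change was below 0 for 32 of 36 subunits (88.9%), against 51.7% of all genes. Without Ndufa4 and Ndufa4l2, 6 of 34 subunits fell and the median was again -0.11.

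**Figure D1:**
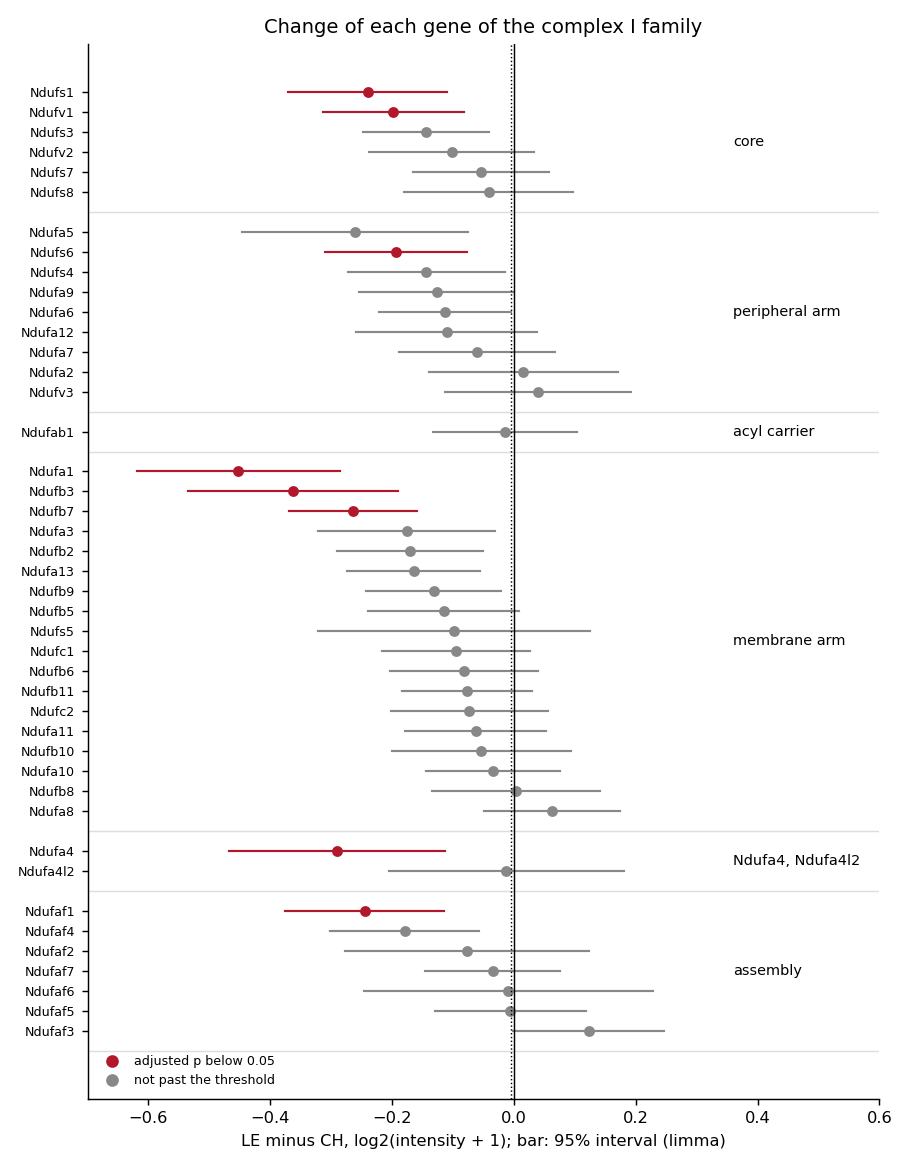
Change of each of the 43 genes (LE minus CH, log2 scale) with its 95% interval from limma, grouped by place in the complex, with genes past the threshold in red and the median of all genes as a dotted line. The points run from -0.45 for Ndufa1 to 0.12 for Ndufaf3, and 38 of 43 lie left of 0.

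The promoters of Ndufa1, Ndufb3 and Ndufb7 are shown because these genes had the lowest adjusted p-values of the family. Each is the stretch of 250 bases before the RefSeq start site in the direction of the gene, from GRCm38.p6: chrX:37191239-37191488 on the minus strand for Ndufa1, chr1:58586147-58586396 on the plus strand for Ndufb3 and chr8:83566508-83566757 on the plus strand for Ndufb7. Capitals mark matches to 4 motifs known from promoters of respiratory chain genes, searched on both strands: the NRF1 palindrome, CCGGAAG (the ETS family, which includes GABP), AAGATGGC (YY1) and GGGCGG (the GC box).
Ndufa1: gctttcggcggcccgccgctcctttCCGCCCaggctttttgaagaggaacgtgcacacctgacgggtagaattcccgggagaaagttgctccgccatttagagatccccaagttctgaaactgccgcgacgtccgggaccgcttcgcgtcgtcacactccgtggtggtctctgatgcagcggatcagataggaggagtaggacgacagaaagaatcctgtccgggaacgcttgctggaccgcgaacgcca
Ndufb3: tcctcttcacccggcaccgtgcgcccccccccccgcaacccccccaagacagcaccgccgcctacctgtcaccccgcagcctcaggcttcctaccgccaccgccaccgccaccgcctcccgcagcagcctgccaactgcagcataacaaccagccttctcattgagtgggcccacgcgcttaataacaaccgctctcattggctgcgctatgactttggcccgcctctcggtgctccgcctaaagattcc
Ndufb7: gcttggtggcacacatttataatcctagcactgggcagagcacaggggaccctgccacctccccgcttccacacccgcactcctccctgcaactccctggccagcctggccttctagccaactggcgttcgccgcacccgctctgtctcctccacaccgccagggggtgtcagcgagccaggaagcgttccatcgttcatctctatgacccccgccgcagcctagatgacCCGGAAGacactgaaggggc
Ndufa1 has a GC box on the opposite strand that begins 225 bases before the start, Ndufb7 has an ETS match that begins 20 bases before it, and Ndufb3 has none of the 4 in this stretch. Their G and C content is 59.6%, 65.6% and 63.6%, beside a median of 57.6% over the subunits and 52.4% over all windows of the table.

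Windows from 250 bases before to 50 bases after the start were found for 32 of the 36 subunits and 6 of the 7 assembly factors. Those of Ndufs1, Ndufa2, Ndufa4l2, Ndufb9 and Ndufaf6 were not used here. The YY1 letters were in 7 of the 32 subunit windows (21.9%) and in 2.75% of all 32851 windows. The other motifs were in 14 subunit windows for the GC box (43.8%, against 35.7% of all windows), 4 for ETS (12.5%, against 8.86%) and 1 for NRF1 (3.12%, against 0.971%). Before the start, subunit promoters are richer in G and C than the table as a whole, and the shares were not adjusted for this. They are a description of letters, and binding was not measured. The YY1 letters contain ATG, so the string can also be part of the first codon of a protein. Whether it is so in the 7 windows was not tested, and the shares were not adjusted for it. The 7 stretches around the YY1 letters are shown since this string differs most from its share in all windows. They run in the direction of the gene, and each ends where its window does if that comes first.
Ndufa3, chr7:3617384-3617413, plus strand: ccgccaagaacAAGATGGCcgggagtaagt
Ndufa9, chr6:126849097-126849126, minus strand: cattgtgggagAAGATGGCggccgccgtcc
Ndufb8, chr19:44555393-44555415, minus strand: cggagaaggtgAAGATGGCtgcc
Ndufc1, chr3:51408915-51408944, minus strand: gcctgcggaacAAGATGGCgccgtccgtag
Ndufs4, chr13:114388045-114388070, minus strand: ttgcctacaggAAGATGGCggcggtc
Ndufs6, chr13:73328433-73328460, minus strand: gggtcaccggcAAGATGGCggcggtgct
Ndufs7, chr10:80249462-80249491, plus strand: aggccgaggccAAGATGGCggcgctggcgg
In all 7 the string lies after the start, with its first base 23 to 39 bases downstream, and in 0 of 7 does it overlap another of the motifs. Of the 6 subunit genes that fell and had a window, 1 (Ndufs6) holds the YY1 letters, 1 the ETS letters (Ndufb7), 1 the GC box (Ndufa1) and 0 the NRF1 letters.

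The catalytic core carries electrons from NADH to ubiquinone. Its 6 measured nuclear genes all had a change below 0 (median -0.12), and 2 of them fell. Of all genes, 51.7% had a change below 0 and 5.08% fell. Ndufs1, the largest subunit and a carrier of iron-sulfur clusters, had levels of 10.59, 10.49 and 10.56 on CH1 to CH3 and of 10.25, 10.30 and 10.38 on LE1 to LE3. The groups do not overlap, and LE1 is the lowest array. The gene fell by 0.24 (SE 0.06, -15.3%, limma adjusted p = 0.030). Ndufv1, which binds NADH and the flavin, had levels of 11.71, 11.67 and 11.64 on the CH arrays and of 11.44, 11.45 and 11.52 on the LE arrays, so that every LE array lay below every CH array. It fell by 0.20 (SE 0.05, -12.8%, adjusted p = 0.041).

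Ndufs3, a core subunit near the ubiquinone site, had little spread within either diet. Its levels were 11.91, 11.91 and 11.90 on the CH arrays and 11.75, 11.76 and 11.76 on the LE arrays. The groups are separated by more than their SDs of 0.01 (n = 3 each), yet limma, which draws each gene's variance towards that of all genes, gave an adjusted p of 0.082 for its difference of -0.14 (SE 0.04). A further probe set of the same gene gave -0.13. The adjusted p of Ndufs3 was between 0.0021 and 0.223 over the alternative settings.

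The remaining core genes did not pass. Ndufv2, an iron-sulfur partner of Ndufv1, differed by -0.10 (95% interval -0.24 to 0.03). Ndufs7, which holds the last cluster before ubiquinone, differed by -0.05 (-0.17 to 0.06), and Ndufs8, another iron-sulfur subunit, by -0.04 (-0.18 to 0.10). The estimate for Ndufv1, -0.20, lies inside the interval of Ndufv2 and outside those of Ndufs7 and Ndufs8. Ndufv1 has an interval of its own, -0.31 to -0.08, that overlaps all of these, and differences between genes were not tested.

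**Figure D2:**
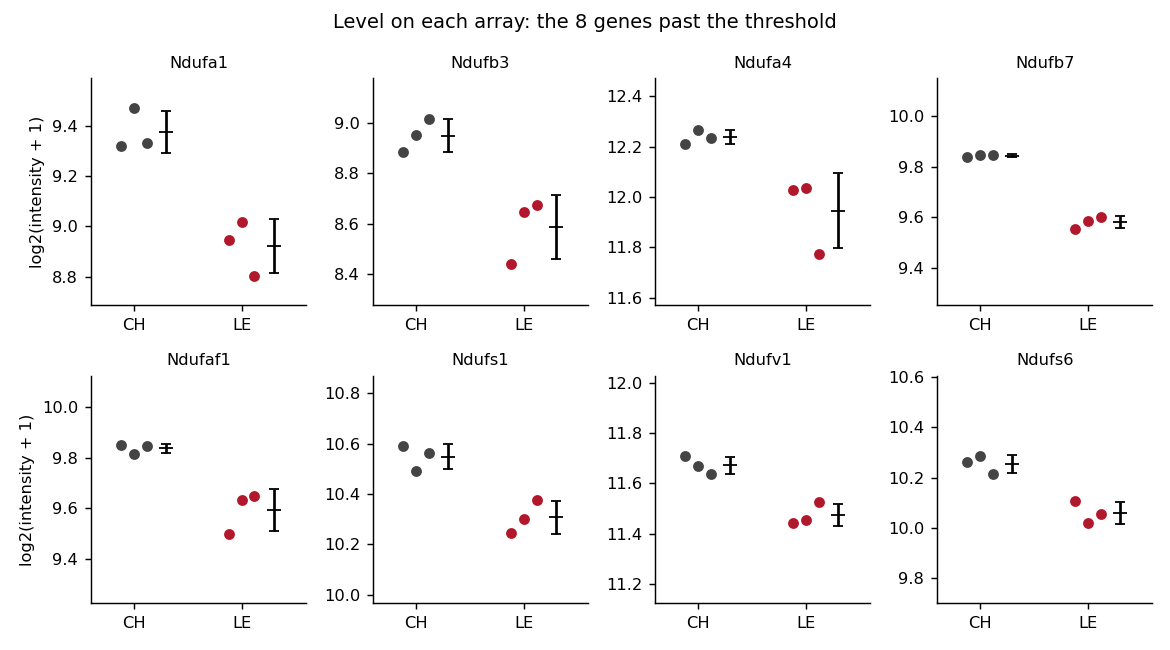
Level on each array, as log2(intensity + 1), of the 8 genes past the threshold, with points for the 3 CH and 3 LE arrays and a bar for each group's mean and SD. All panels span the same height, and in all 8 the LE arrays lie below the CH arrays.

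Among the 9 accessory genes of the peripheral arm 1 fell (11.1%, against 5.08% of all genes), with a median change of -0.11. Ndufs6, a zinc-binding subunit close to the NADH-oxidising part, had levels of 10.26, 10.28 and 10.22 on the CH arrays and 10.11, 10.02 and 10.06 on the LE arrays. No LE array reached the lowest CH array, and the gene fell by 0.19 (SE 0.05, -12.5%, adjusted p = 0.044). Ndufa5, a subunit next to the ubiquinone-reducing part, had a larger difference of -0.26 but a wider error (SE 0.08, adjusted p = 0.080). Its levels were 8.66, 8.80 and 8.71 on the CH arrays and 8.58, 8.51 and 8.30 on the LE arrays, with LE3 the lowest. Ndufs4, which links parts of the arm, differed by -0.14, Ndufa9, a nucleotide-binding subunit, by -0.13, Ndufa6, which holds an acyl carrier protein, by -0.11, and Ndufa12 by -0.11, each with groups that do not overlap and none past the threshold. Ndufa7 differed by -0.06. Ndufa2 and Ndufv3 lay slightly above 0, at 0.02 (95% interval -0.14 to 0.17) and 0.04 (-0.11 to 0.19), and their groups overlap.

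The acyl carrier protein Ndufab1 sits in both arms and also serves mitochondrial fatty acid synthesis. It differed by -0.01 (95% interval -0.13 to 0.10), and its other probe set by -0.02. Its partner Ndufb9, which holds the copy of the membrane arm, differed by -0.13 (SE 0.05, adjusted p = 0.132).

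The membrane arm held the largest changes of the family. Of its 18 accessory genes 3 fell (16.7%, against 5.08% of all genes), and the median was -0.10. Ndufa1, a small subunit with a single membrane span that is encoded on the X chromosome, had levels of 9.32, 9.47 and 9.33 on the CH arrays and 8.94, 9.02 and 8.80 on the LE arrays. The gap between the groups exceeds the range within either, and the gene fell by 0.45 (SE 0.07, -26.9%, adjusted p = 0.0056). Ndufb3, a small subunit of the far end of the arm, had levels of 8.88, 8.95 and 9.01 on the CH arrays and 8.44, 8.65 and 8.67 on the LE arrays. LE1 is the lowest array and the groups do not overlap. Ndufb3 fell by 0.36 (SE 0.07, -22.2%, adjusted p = 0.018).

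Ndufb7, a cysteine-rich subunit on the side of the intermembrane space, had the smallest spread of the genes that fell. Its levels were 9.84, 9.85 and 9.85 on the CH arrays and 9.55, 9.58 and 9.60 on the LE arrays. It fell by 0.26 (SE 0.05, -16.7%, adjusted p = 0.0082). Other cysteine-rich subunits of that side did not pass, with differences of 0.06 for Ndufa8, -0.05 for Ndufb10 and -0.10 for Ndufs5. Ndufa8 had all LE arrays above the CH arrays and was 1 of 4 subunits with a change above 0, at an adjusted p of 0.494 (95% interval -0.05 to 0.17).

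Of the other membrane arm genes, Ndufa3 (-0.18), Ndufb2 (-0.17), Ndufa13, also known as GRIM-19 (-0.16), Ndufb5 (-0.12), Ndufc1 (-0.09) and Ndufb11 (-0.08) had LE arrays that lay below all CH arrays and adjusted p-values between 0.0636 and 0.366. Ndufb6 (-0.08), Ndufc2 (-0.07), Ndufa11 (-0.06), Ndufa10 (-0.03) and Ndufb8 (0.004) had overlapping groups. Ndufc2, for example, had levels of 13.08, 13.09 and 13.03 on the CH arrays and 13.07, 12.98 and 12.92 on the LE arrays. Its interval, -0.20 to 0.06, does not reach the estimate for Ndufb7 but overlaps the interval of Ndufb7, -0.37 to -0.16.

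Ndufa4, the subunit now assigned to complex IV, had levels of 12.21, 12.27 and 12.23 on the CH arrays and 12.03, 12.04 and 11.78 on the LE arrays. LE3 stands below the other LE arrays, and the gene fell by 0.29 (SE 0.08, -18.2%, adjusted p = 0.048). Its paralog Ndufa4l2, known for its induction by low oxygen, had levels of 7.34, 7.04 and 7.05 on the CH arrays and 7.12, 7.14 and 7.13 on the LE arrays. The groups overlap and the difference was -0.01 (95% interval -0.21 to 0.18).

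Of the 7 Ndufaf genes 1 fell and 0 rose by limma, with a median change of -0.03. Over all genes 5.08% fell and 7.01% rose, so that among 7 genes these counts are near the background. The count of Ndufaf genes that were higher was also 0 at an unadjusted p below 0.05 (13.0% of all genes) and in the cyberT-style test (10.4%). Ndufaf1, which helps to build the membrane arm, had levels of 9.85, 9.82 and 9.85 on the CH arrays and 9.50, 9.63 and 9.65 on the LE arrays. The groups do not overlap, and the gene fell by 0.25 (SE 0.06, -15.6%, adjusted p = 0.029). Ndufaf3 and Ndufaf4, which act together on the part that reduces ubiquinone, lay on opposite sides of 0, Ndufaf4 at -0.18 (adjusted p = 0.071) and Ndufaf3 at 0.12 (adjusted p = 0.208). The groups of each do not overlap, with levels of 8.92, 8.78 and 8.85 against 8.67, 8.69 and 8.67 for Ndufaf4 and between 9.88 and 10.0004 against between 10.03 and 10.11 for Ndufaf3. Ndufaf2 (-0.08), Ndufaf7 (-0.03), Ndufaf6 (-0.0095) and Ndufaf5 (-0.0057) had overlapping groups. For Ndufaf5, a hydroxylase acting on Ndufs7, the levels were 6.70, 6.59 and 6.60 on the CH arrays and 6.59, 6.61 and 6.67 on the LE arrays.

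The lower levels of the subunits were seen on each LE array. All LE arrays lay below all CH arrays for 21 of 36 subunits (58.3%), against 14.7% of all genes, and above them for 1 (15.9% of all genes). For each subunit the deviation from its own mean over the 6 arrays was taken, and its median over the subunits was 0.07, 0.06 and 0.07 on CH1 to CH3 and -0.07, -0.05 and -0.04 on LE1 to LE3. Over all genes the same medians lay between -0.03, on LE2, and 0.03, on LE3. The -0.05 of the subunits on LE2 thus stands beside -0.03 over all genes on that array. For the 7 Ndufaf genes the medians were 0.03, -0.0004 and 0.09 on CH1 to CH3 and -0.10, -0.01 and 0.04 on LE1 to LE3, and their median change was 0.0015 without LE1. LE1 was the lowest LE array for 20 of 36 subunits, LE3 for 9 and LE2 for 7. Within a diet the median SD of the subunits was 0.03 among CH arrays and 0.06 among LE arrays, beside 0.07 and 0.08 over all genes. All 36 subunits are among the brighter genes, whereas the medians over all genes include the dimmer ones. Whether the subunits vary less than genes of like intensity was not tested. Of the 29 subunits that did not pass, 8 had a 95% interval, not adjusted for the number of genes, that lay below 0, or 27.6%, beside 7.64% of all genes that did not pass.

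**Figure D3:**
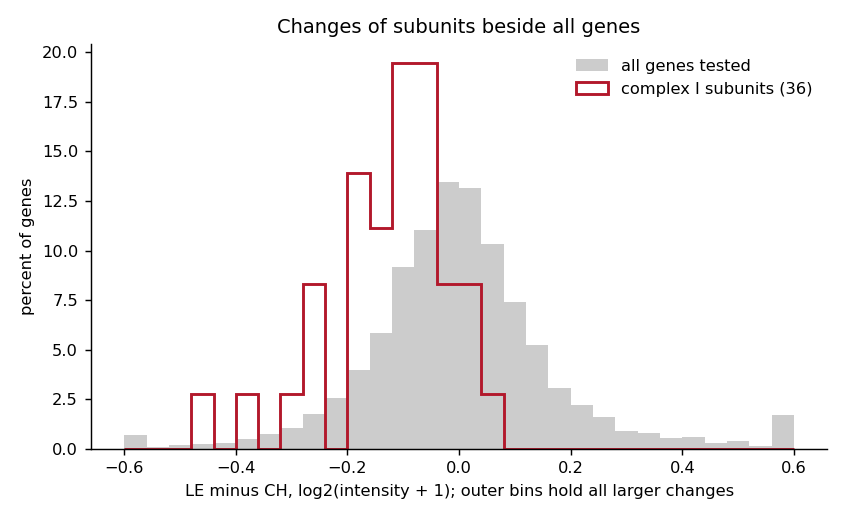
Share of genes, in percent, by change (LE minus CH, log2 scale, outer bins holding all larger changes), for the 36 subunits as a red outline and for all 19938 genes in grey. The subunits lie between -0.45 and 0.06 with a median of -0.11, and all genes centre on -0.005 with tails on both sides.

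Which genes passed depended on the setting. Leaving out 1 array also leaves fewer arrays to test, and over all genes 1489 to 1868 then passed in place of 2410. Whether a call was lost through the smaller number of arrays or through the array left out was not tested. Ndufa1 and Ndufb7 passed under all 15 alternative settings (adjusted p at most 0.0202 and 0.0398). Ndufb3 did not pass without CH3 (0.0571, and 1.24e-04 to 0.0571 over the alternatives). Ndufs1 did not pass without CH1, CH3, LE1 or LE2 (0.0891 to 0.116, and 1.48e-04 to 0.116 over the alternatives), and Ndufv1 and Ndufaf1 did not pass when any array other than LE3 was left out (0.0803 to 0.155 and 0.0646 to 0.1, from 1.72e-04 and 9.45e-04 upwards over the alternatives). Ndufa4 and Ndufs6 did not pass when any 1 of the arrays was left out (0.0511 to 0.12 and 0.065 to 0.146, from 1.49e-04 and 0.0020 upwards), and Ndufa4 also missed it once arrays were quantile normalised (0.0733). With a robust prior and an intensity trend in limma, and under the cyberT-style test, 16 of 36 subunits fell, where 7.82% and 8.42% of all genes did.

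**Figure D4:**
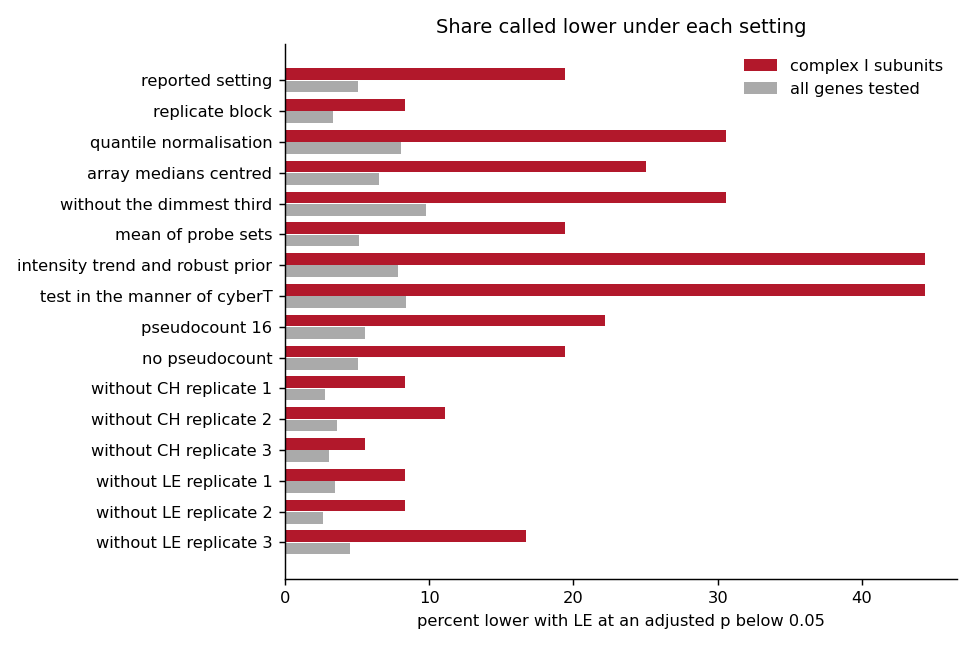
Percent of the 36 subunits (red) and of all genes tested (grey) that were lower with LE at an adjusted p below 0.05, under the reported setting and 15 alternatives. The subunit bars run from 5.56% without CH replicate 3 to 44.4% with an intensity trend and with the cyberT-style test, and each is longer than its grey bar.

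Some probe sets cannot be tied to 1 gene. Each of the 5 subunit genes with 2 probe sets had changes of the same sign in both, and the probe set not used was the lower one for Ndufb11 (-0.18 against -0.08) and Ndufc1 (-0.19 against -0.09). The RefSeq gene table names a copy of Ndufa11, Ndufa12, Ndufab1, Ndufs5 and Ndufs6, each annotated as a pseudogene, so signal of these 5 genes is uncertain where a copy shares their probes. Probe sets shared by Ndufb4 and Ndufb4b, left out of the family, gave -0.07 and -0.08, and the one shared by Ndufs5 and its pseudogene 0.03.

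The subunit that mitochondrial DNA supplied to this comparison was ND3, a hydrophobic core subunit of the membrane arm. Its levels on the CH arrays averaged 13.65 and on the LE arrays 13.46, without overlap, and its difference of -0.19 (SE 0.06) did not pass (adjusted p = 0.066). Of 13 measured assembly genes with other names, 1 rose, and the others did not pass. As 7.01% of all genes rose and 5.08% fell, these counts among 13 genes are near the background. The gene that rose was Foxred1, an assembly factor of the oxidoreductase family, at 0.49 (SE 0.05, adjusted p = 8.82e-04), while 8 of the 13 had a change below 0 and the median was -0.08.

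Other parts of the chain had medians of the same sign. Beside them stand a median of -0.005 over all genes and shares of 5.08% that fell and 7.01% that rose. The 1 higher gene in each of complexes IV and V is near that background. In complex II 2 of 4 genes fell (median -0.14), in complex III 2 of 9 (-0.18), in complex IV 2 of 11 with 1 higher (-0.06) and in complex V 2 of 17 with 1 higher (-0.09). The genes that rose there were the muscle-type cytochrome oxidase subunit Cox7a1 (1.04, adjusted p = 9.33e-04) and Atpif1, the inhibitor of ATP synthase (1.26, adjusted p = 1.21e-05). Those that fell were Sdhb (-0.34, adjusted p = 0.0026) and Sdha (-0.23, 0.015) of succinate dehydrogenase, the Rieske iron-sulfur protein gene Uqcrfs1 (-0.24, 0.014) and the cytochrome c1 gene Cyc1 (-0.23, 0.024) of complex III, Cox5a (-0.27, 0.015) and Cox6c (-0.18, 0.042) of complex IV, and Atp5l (-0.39, 0.029) and Atp5e (-0.24, 0.013) of complex V. Several of these calls were lost when 1 array was left out, which also leaves fewer arrays to test. Uqcrfs1 and Cyc1 both lost theirs without CH1, CH3 or LE2, Cox5a and Cox6c without CH3, and Atp5l and Atp5e without CH1 or CH3. Cyc1 also lost its call without LE1 or LE3, Atp5l without CH2 or with averaged probe sets, Cox6c when any 1 of the arrays was left out, and Sdha without CH1, CH2 or LE2. Over the alternatives the adjusted p reached 0.0654 for Sdha, 0.0653 for Uqcrfs1, 0.0912 for Cyc1, 0.0549 for Cox5a, 0.12 for Cox6c, 0.0777 for Atp5l and 0.0588 for Atp5e, whereas Sdhb, Cox7a1 and Atpif1 passed in all 15. Whether complex I differs from these lists was not tested.

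Of 16 genes that supply NADH through pyruvate dehydrogenase and the citric acid cycle, 3 fell and 2 rose (median -0.05). Of all genes, the background also for the lists that follow here, 5.08% fell and 7.01% rose (median -0.005). Citrate synthase, Cs, rose by 0.41 (SE 0.05, adjusted p = 0.0020), whereas Pdhb, a subunit of pyruvate dehydrogenase, fell by 0.35 (SE 0.06, adjusted p = 0.011) and the succinyl-CoA ligase genes Suclg1 and Sucla2 each by 0.27 (adjusted p = 0.0097 and 0.015). Sucla2 lost its call without CH1, LE1 or LE2 (adjusted p up to 0.0663 over the alternatives). Dlat, another subunit of pyruvate dehydrogenase, rose by 0.20 (SE 0.05, adjusted p = 0.041). It did not pass with array medians centred or when any 1 of the arrays was left out (adjusted p up to 0.156). In ubiquinone synthesis, which makes the electron acceptor of complex I, 2 of 12 genes fell (median -0.09). They were Coq3 (-0.20, adjusted p = 0.031) and Coq9 (-0.18, adjusted p = 0.043), and neither passed when any 1 of the arrays was left out (adjusted p 0.0010 to 0.129 and 9.97e-04 to 0.143 over the alternatives). Of 6 other dehydrogenases that reduce ubiquinone, 1 fell, the hydroxyproline dehydrogenase gene Prodh2 (-0.34, adjusted p = 0.0043).

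Among 14 regulators of respiratory chain genes 2 fell and 1 rose (median -0.10), where 5.08% of all genes fell and 7.01% rose. The coactivator gene Ppargc1a rose by 0.97 (SE 0.07, adjusted p = 8.68e-05) and its relative Ppargc1b fell by 0.59 (SE 0.05, adjusted p = 3.24e-04). The mitochondrial deacetylase gene Sirt3 fell by 0.29 (SE 0.04, adjusted p = 0.0049). The listed factors behind the searched motifs, named for that reason, did not pass. They were Nrf1 at -0.05, Yy1 at -0.09, Gabpa at -0.13 and its partner Gabpb1 at -0.21. Gabpb1 had a 95% interval of -0.36 to -0.05 (adjusted p = 0.091) and groups that do not overlap. Factors that bind the GC box were not in the list. Beside the same shares over all genes, 3 of 23 genes of mitochondrial import, chaperones and carriers fell and 1 rose. Their median was 0.0055, and it was -0.03 after quantile normalisation and -0.02 after centring, so its sign depended on the scaling. Those past the threshold with the largest changes were Opa1, which fuses inner membranes (-0.25), the carrier Slc25a4 (0.24) and the protease Lonp1 (-0.22). Each lost its call when some 1 of the arrays was left out, Opa1 without CH1, CH3, LE1 or LE2, Slc25a4 when any array other than LE1 was left out, and Lonp1 when any other than LE3 was (adjusted p up to 0.0897, 0.08 and 0.155).

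**Figure D5:**
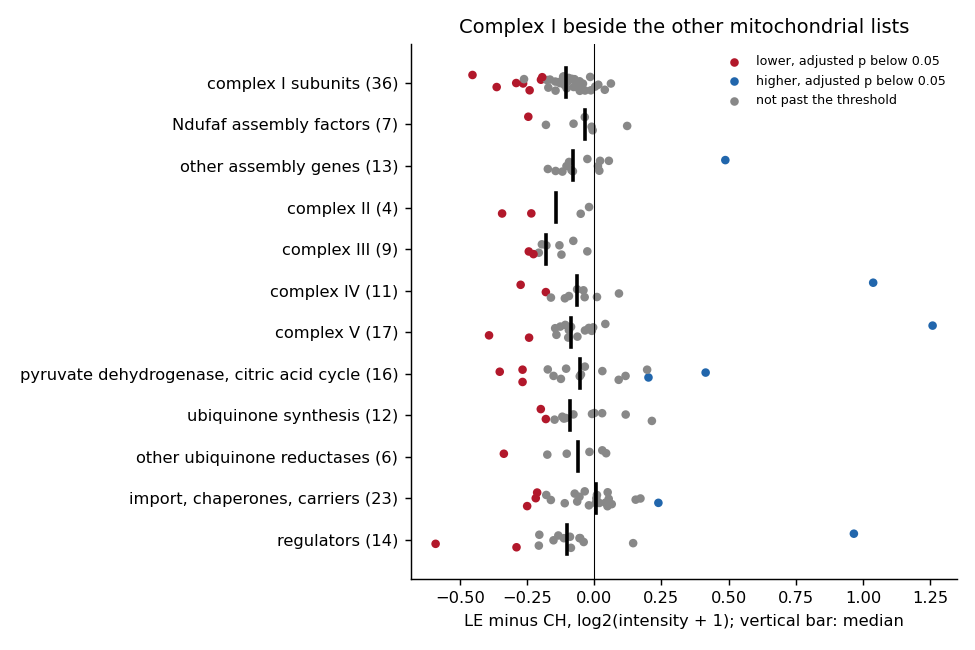
Change of each gene (LE minus CH, log2 scale) in the complex I subunits, the Ndufaf genes and 10 other mitochondrial lists, 1 point per gene, with red for lower and blue for higher past the threshold and a vertical bar for the median. The subunits of complex I cluster left of 0 with a median of -0.11, and the points at the right edge are Cox7a1, Atpif1 and Ppargc1a.

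The arrays carried a liver profile. The summed intensity of 8 hepatocyte markers, among them Alb and Ttr, was 113893 to 115051 on CH arrays and 112165 to 115181 on LE arrays, while that of 6 muscle genes was 883 to 951 and 936 to 996. Of the hepatocyte markers 1 fell, Tdo2 (-0.21, adjusted p = 0.032), where 5.08% of all genes fell and 7.01% rose. Genes that mark Kupffer cells and macrophages moved with the diet, with 7 of 8 higher and a summed intensity of 6875 to 7286 on CH arrays and 8574 to 8979 on LE arrays, led by Cd68 (0.55), Csf1r (0.47) and C1qa (0.41). The summed intensity also did not overlap for 5 lymphocyte genes (780 to 834 on CH arrays and 852 to 928 on LE arrays), of which Ptprc rose (0.26, adjusted p = 0.040). It was lower on LE arrays for 6 genes of liver endothelium (6774 to 6931 on CH arrays, 6310 to 6723 on LE arrays) and 5 of stellate cells (3036 to 3119 and 2875 to 3016), lists in which no gene passed and the smallest p belonged to Stab2 (-0.12, adjusted p = 0.151) and Reln (-0.10, 0.247). The sums overlapped for genes of cholangiocytes, fat, pancreas and muscle, none of which passed; the smallest p there belonged to Epcam (-0.08), Adipoq (0.09), Cela1 (-0.07) and Acta1 (0.12). The part of these cell types in the lower subunit levels was not tested. In whole liver, fewer cells of a type and less RNA per cell cannot be told apart. Over all 19938 genes 2410 passed, 42.0% of them lower, a share that was 52.3% after quantile normalisation and 51.6% after centring.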

How the data were processed

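Linear intensities, 1 per probe set, were deposited by the authors. How background was corrected and arrays were normalised is not given in the sources used here. Per the labels, the authors tested differential expression with Partek Genomics Suite as well as cyberT. Array medians were 158 to 163, and at most 28 of 35556 probe sets had the same value on 2 arrays. Probe sets of 1 gene in the platform annotation were kept (21789), and per gene the one with the highest mean, which left 19938 genes. Diets were compared on log2(intensity + 1) with limma 3.58.1 (lmFit, eBayes) in R 4.3.3, two-sided, Benjamini-Hochberg over all genes, threshold 0.05. Adjusted p-values and standard errors are limma's, with n = 3 arrays per diet, whose number limits the precision. An exact permutation test of 3 against 3 cannot give a p below 0.1. Tables and figures were made with Python 3.11.15, pandas 2.3.3 and matplotlib 3.10.9.

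The members and lists were chosen with earlier results of these data known. Named with values are all members, and of each other list up to 3 genes that passed, by size of change, or, where none did, the gene of smallest p. Dlat was added because it belongs to the same enzyme as Pdhb. Promoter windows are RefSeq's on GRCm38.p6.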

Additional observations from a re-analysis of the deposited data

How the results depend on the processing

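The 15 alternatives were a replicate block, quantile normalisation, equal array medians, only the brighter genes, averaged probe sets, an intensity trend with robust prior, a cyberT-style test, pseudocounts of 16 and none, and omission of each array. The sign of the subunit median was below 0 in all of them, and 0 subunits rose in any. The number of subunits that fell was 3 with the replicate block, 11 after quantile normalisation, 11 among the brighter genes alone, 16 with the intensity trend, 16 in the cyberT-style test, and 2 to 6 when 1 array was left out. The number of Ndufaf genes that fell was 0 with the block, 2 after quantile normalisation, 2 among the brighter genes, 2 with the trend, 2 in the cyberT-style test, and 0 to 1 without 1 array. Over all genes tested the share that fell also moved, to 3.3% with the block, 8.01% after quantile normalisation and 9.78% among the brighter genes. It was 7.82% with the trend, 8.42% in the cyberT-style test and 2.63% to 4.48% without 1 array. The subunit median was -0.13 after quantile normalisation (-0.1333) and after centring (-0.1324), and -0.1223 to -0.0953 without 1 array. Over all genes 3746 passed in the cyberT-style test and 1489 to 1868 without 1 array. The cause of these differences was not tested. With the replicate block, Ndufa1, Ndufb3 and Ndufb7 passed and Ndufa4 (adjusted p = 0.0744), Ndufs1 (0.0709), Ndufs6 (0.096), Ndufv1 (0.101) and Ndufaf1 (0.0685) did not. The Ndufaf median was 0.0015 without LE1. The labels give both diets the numbers 1 to 3, but deviations of same-numbered arrays from their group means correlated at -0.0214, -0.0967 and 0.16, so the numbers were not taken to pair the samples.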
